A study of Mus musculus with 9 samples.

Results

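The antioxidant and glutathione genes described here are 45 protein-coding genes of mouse tibialis anterior, a fast muscle of the lower leg, out of 14971 genes listed in either of 2 expression tables. They were chosen by a rule on gene names that uses no measured value, although it was set with earlier results of these data known. The set holds superoxide dismutases, catalase, glutathione peroxidases, peroxiredoxins with sulfiredoxin, the thioredoxin system, the enzymes that make and recycle glutathione, the glutathione S-transferases of the alpha, kappa, mu, omega, pi, theta and zeta classes, and quinone and haem enzymes. The 9 polyA RNA libraries came from male C57BL/6J mice in 3 groups of 3. They were Control animals, animals without testes (orchiectomised, ORX), and ORX animals that received DHT (dihydrotestosterone, an androgen that is not converted to oestrogen), all taken at 4 weeks after treatment. Age, DHT dose and route, and the timing of surgery are not given in the sources used here, and the Control columns are headed Sham in the tables. The labels call the libraries biological replicates and name no animal, so p-values measure the spread between these libraries.

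Superoxide dismutases turn superoxide into hydrogen peroxide, which catalase, the glutathione peroxidases and the peroxiredoxins then remove. The peroxidases draw on glutathione or thioredoxin, which glutathione reductase and the thioredoxin reductases regenerate with NADPH. Glutathione S-transferases join glutathione to reactive compounds, and many genes of this system are known targets of the transcription factor Nrf2 through antioxidant response elements.

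Recovered depth was 1340209 to 1682235 reads per library. All 6 myofibre markers (Acta1, Ckm, Tnnt3, Ttn, Des and Mb) were detected in every library. The first Control library stood apart: its score on the first principal component, which held 30.7% of the variance, was -47.2, against 0.716 to 10.6 in the other 8 libraries. Its correlation with the other Control libraries across 8631 genes was 0.928 and 0.929, whereas those 2 correlated at 0.968, and genes are not independent replicates. Control 1 also held the highest value of the 9 libraries for 19 of 37 antioxidant genes with a mean of at least 10, and for 27.3% of all 8631 genes. Log2 differences from Control are therefore given with and without it.

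The clearest difference lay in the mu-class glutathione S-transferases, which form a cluster on chromosome 3. In GENCODE M21 on GRCm38, Gstm2 spans chr3:107981702-107986453 and Gstm1 chr3:108012255-108017973, both on the minus strand. Gstm4 lies beyond Gstm1 at chr3:108040408-108044894, also on the minus strand, while Gstm5 lies at the other end of the cluster on the plus strand, at chr3:107895821-107898686. The sequences before the start sites of Gstm2 and Gstm1, which were lower in ORX+DHT than in ORX, and of Gstm5, which did not pass the test, are shown to compare neighbours of one cluster. They are RefSeq windows on GRCm38.p6 in the direction of transcription, ended before the first annotated transcribed base: chr3:107986454-107986670 (minus strand) for Gstm2, chr3:108017974-108018223 (minus strand) for Gstm1 and chr3:107895604-107895820 (plus strand) for Gstm5. Capitals mark matches to AGAACA or TGTTCT, the half-sites of the androgen response element, and to TGACNNNGC, the core of the antioxidant response element.
Gstm2: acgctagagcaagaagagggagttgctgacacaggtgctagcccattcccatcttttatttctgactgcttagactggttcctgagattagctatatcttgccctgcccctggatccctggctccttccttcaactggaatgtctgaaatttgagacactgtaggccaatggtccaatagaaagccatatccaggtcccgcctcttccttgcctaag
Gstm1: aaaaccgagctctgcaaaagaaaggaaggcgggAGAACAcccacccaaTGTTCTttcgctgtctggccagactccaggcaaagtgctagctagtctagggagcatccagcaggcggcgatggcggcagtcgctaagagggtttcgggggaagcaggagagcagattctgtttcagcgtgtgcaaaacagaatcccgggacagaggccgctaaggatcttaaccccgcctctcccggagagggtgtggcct
Gstm5: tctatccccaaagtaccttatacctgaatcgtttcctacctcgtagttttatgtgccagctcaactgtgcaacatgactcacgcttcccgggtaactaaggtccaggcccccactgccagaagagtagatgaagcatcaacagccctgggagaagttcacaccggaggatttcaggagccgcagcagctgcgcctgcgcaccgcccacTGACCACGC
The Gstm1 window held 2 half-sites, at -217 to -212 and at -202 to -197 from the RefSeq start site. They face each other but are 9 bases apart, against 3 in the full androgen response element, which no antioxidant gene's window held and 0.009% of all windows did. The Gstm2 window held none of these letters, and the Gstm5 window held 1 antioxidant response element core at -42 to -34. Both strands were searched in the 250 bases before the start site, and the half-site is part of the full element. The 38 antioxidant genes with a window had 51 windows, 1 for each RefSeq start site, and windows, not genes, are counted here. The half-site was found in 16.087% of 32841 windows and in 6 of the 51 windows of antioxidant genes, 1 each for Cat, Gclm, Gpx3, Gstm1, Hmox2 and Txnrd1. The antioxidant response element core was found in 10.164% of all windows and also in 6 of the 51, 1 each for Gclm, Gstm5, Gstm7, Prdx1, Sod1 and Txnrd1. For Gstm7 it lay at -129 to -121 from the start site whose window spans chr3:107931565-107931864. A match is a description of the letters, and binding was not measured.

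Gstm2, a muscle-rich glutathione S-transferase, stood at 44.9, 37.6 and 31.8 normalised counts in the Control libraries, at 73.6, 70.8 and 69.5 in ORX and at 26.3, 23.2 and 20.7 in ORX+DHT. These levels are on a scale joining both tables, which the authors had normalised separately. Every ORX library was above every Control library, and every ORX+DHT library was below all others. Gstm2 fell by 1.57 on the log2 scale in ORX+DHT against ORX (SE 0.17, 95% interval -1.93 to -1.21, limma adjusted p = 1.02e-05), a level 2.98-fold lower. The mean was 71.3 ± 2.11 in ORX and 23.4 ± 2.81 in ORX+DHT (SD, n = 3 each). The reads behind these values numbered 75 to 84 in ORX but 21 to 26 with DHT. This call held under all 17 other settings run, with adjusted p-values of at most 0.000364.

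Against Control (38.1 ± 6.60, SD, n = 3), Gstm2 in ORX differed by 0.90 on the log2 scale (95% interval 0.48 to 1.32), with a limma adjusted p of 0.215 across all genes. Without Control 1 the difference was 1.02 and the limma adjusted p was 0.0135. Gstm2 was the only antioxidant gene called in that comparison under any setting. Leaving out Control 1 raised the calls over all genes from 5 to 51, of 8609 tested. ORX+DHT differed from Control by -0.67 (limma unadjusted p = 0.0119, adjusted p = 0.736), so the lower level than in Control did not pass the test although the groups did not overlap, and without Control 1 the difference was -0.55 (limma adjusted p = 0.465).

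Gstm1, the transferase with the highest level per kb of transcript among the members of its family measured here, stood at 149, 115 and 121 in Control, at 147, 149 and 187 in ORX and at 79.0, 91.8 and 107 in ORX+DHT. Every ORX+DHT library was below every library of the other groups, whereas Control and ORX overlapped. Gstm1 fell by 0.80 on the log2 scale in ORX+DHT against ORX (SE 0.13, 95% interval -1.08 to -0.51, limma adjusted p = 0.00134), or 1.74-fold. The means were 161 ± 22.4 in ORX and 92.5 ± 13.8 in ORX+DHT (SD, n = 3 each), and the call held under all 17 other settings with adjusted p-values of at most 0.0233. ORX differed from Control by 0.33 (limma adjusted p = 0.696) and ORX+DHT from Control by -0.47 (limma adjusted p = 0.736). Without Control 1 these were 0.44 and -0.36 (limma adjusted p = 0.220 and 0.426). Of the 50-base windows of the Gstm1 transcript, 23.15% occur in other genes or pseudogenes, mainly Gstm2-ps1 and Gstm3, and for Gstm2 the share is 9.36%, of which Gstm1 holds 1.1%. How the authors' counting assigned reads from such windows is not given in the sources used here.

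The other members of the mu cluster did not pass the test. Gstm4 stood at 22.6, 23.0 and 19.9 in ORX and at 17.2, 17.4 and 15.8 in ORX+DHT, against 21.2, 17.7 and 13.9 in Control. Its ORX+DHT libraries were all below the ORX libraries, with a log2 difference of -0.36 (limma adjusted p = 0.528). Gstm5 stood at 129, 87.3 and 80.4 in Control, at 66.7, 82.7 and 67.8 in ORX and at 82.1, 79.3 and 81.0 in ORX+DHT. Its log2 difference between ORX+DHT and ORX was 0.16 (95% interval -0.12 to 0.45, limma adjusted p = 0.664), opposite in sign to Gstm1 and Gstm2. Gstm7 and Gstm3 were near 0, Gstm3 with 1 read in all.

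**Figure D1:**
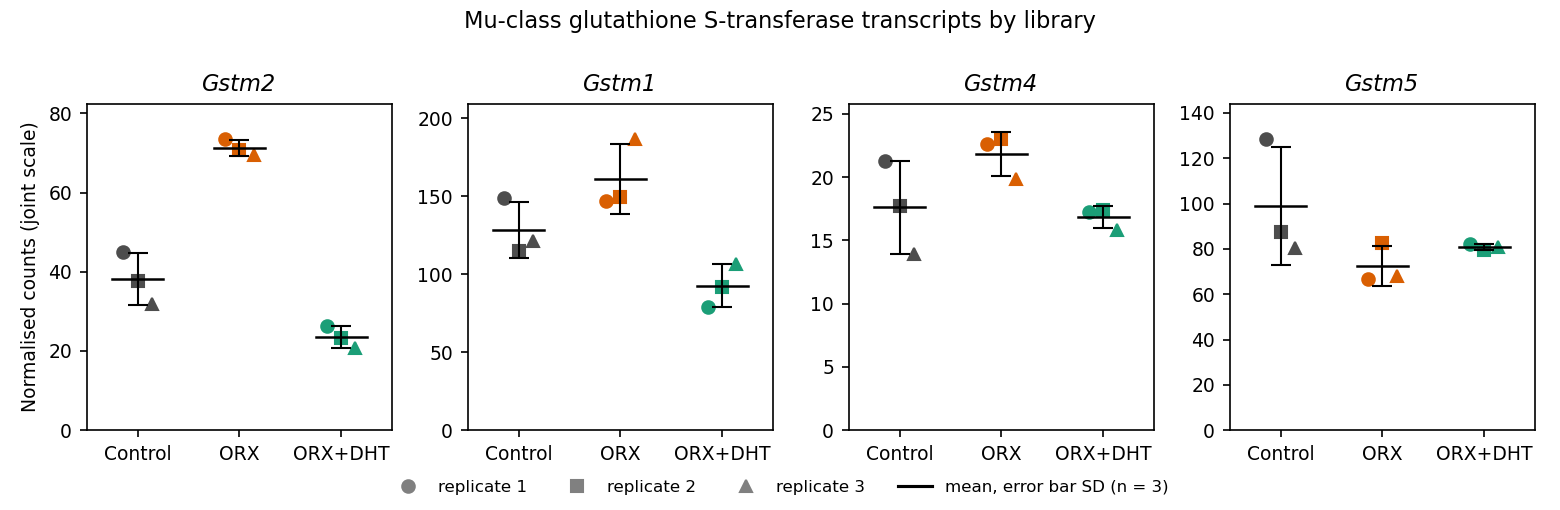
Normalised counts on the joint scale (y axis, from 0) of Gstm2, Gstm1, Gstm4 and Gstm5 in each of the 9 libraries (points) by group (x axis), with the group mean and SD. Gstm2 sits at 69.5 to 73.6 in the ORX group and at 20.7 to 26.3 with DHT, while Gstm5 overlaps between these groups.

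Across the 16 transferases, 11 were abundant enough to test. Between ORX and ORX+DHT, 9 of the 11 had a log2 difference below 0, with a median of -0.264, and Gstm1 and Gstm2 were the 2 that fell. Over all 8770 genes tested the median was 0.006, 49.2% were below 0, and 4.08% were called (2.38% higher and 1.7% lower). Gstk1, a kappa-class transferase of mitochondria and peroxisomes, stood at 25.5, 46.9 and 52.9 in ORX and at 30.4, 28.0 and 25.7 in ORX+DHT, against 54.9, 37.6 and 50.7 in Control. The first ORX library was as low as the ORX+DHT libraries, and the other 2 were above them. The log2 difference between ORX+DHT and ORX was -0.50 (limma adjusted p = 0.353), and without ORX 1 it was -0.81 (limma adjusted p = 0.0338). Against Control the ORX+DHT libraries did not overlap and the log2 difference was -0.73 (95% interval -1.20 to -0.26, limma unadjusted p = 0.00565, adjusted p = 0.704), or -0.62 without Control 1. Gsto1, an omega-class transferase, had ORX+DHT libraries at 36.6 to 42.5 and ORX libraries at 43.5 to 54.0, a log2 difference of -0.26 (limma adjusted p = 0.518). For Gstp1 and Gstp2, pi-class genes that share 62.31% and 72.59% of their 50-base windows with each other or a pseudogene, the split of reads between the copies is uncertain.

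Markers of other cell types were read beside the mu-class genes. The summed level of the 6 fibroblast markers (Pdgfra, Dcn, Col1a1, Col3a1, Dpt and Pi16, all detected in every library) ranged over 1368 to 2696 in Control and 1724 to 2457 in ORX+DHT, and was higher in every ORX library, at 2847 to 3858. Of the 6, 5 had a log2 difference below 0 between ORX+DHT and ORX, and Col1a1, a fibrillar collagen, was the 1 that fell (log2 -1.18, limma adjusted p = 2.89e-06). The summed level of 5 Schwann cell markers ranged over 140 to 147 in Control and 189 to 214 in ORX, with ORX+DHT between at 142 to 193 and Sox10 at 0 in 1 Control library. The myofibre sum ran the other way, lowest in ORX at 110428 to 114363, against 127968 to 185503 in Control and 129522 to 144273 in ORX+DHT, and Acta1, Des and Mb rose in ORX+DHT against ORX. The 7 slow or oxidative fibre markers summed, mostly through Myh2, to 2556 to 4654 in ORX, against 1944 to 5645 in Control and 1938 to 3801 with DHT, with Tnni1 at 0 in 1 ORX+DHT library. Of this list 3 were tested, all below 0 in ORX+DHT against ORX, and Myl3, a slow myosin light chain, fell (log2 -0.75, limma adjusted p = 0.0166). The 4 fast glycolytic fibre markers (Myh4, Actn3, Pvalb and Mybpc2) summed to 103148 to 115910 in ORX+DHT, against 111560 to 120802 in ORX and 132599 to 139954 in Control. In ORX+DHT against ORX 3 of these were below 0 and 1 above, with 0 called. The sum of 5 smooth muscle and pericyte markers was highest in ORX+DHT, at 1280 to 1302, against 1106 to 1184 in ORX and 1006 to 1115 in Control, with 3 of 4 tested above 0 in ORX+DHT against ORX and 0 called. Macrophage sums overlapped between the groups, at 35.4 to 64.9, 50.3 to 87.4 and 59.9 to 71.1. So did the sums of endothelium, erythroid, adipocyte and satellite cell markers, and neutrophil markers summed to at most 1.25 in any library. The part of any of these in the Gstm1 and Gstm2 result was not tested, and in bulk muscle fewer cells of a type and less RNA per cell cannot be told apart.

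Among all antioxidant genes with a mean of at least 10, the DHT comparison within orchiectomised mice tested 36 and called 2 (5.56%, beside 4.08% of all genes), both lower (beside 1.7%). At an unadjusted p under 0.05 there were 6 (16.7%, beside 14.3% of all genes), with Sod1 on the higher side (beside 7.91%) and Gstm2, Gstm1, Nqo1, Txnip and Sod3 on the lower (beside 6.34%). The groups did not overlap for 8 genes (22.2%, beside 19.5%), 3 higher (Sod1, Sod2 and Hmox1, beside 10.4%) and 5 lower (Gstm2, Gstm1, Gstm4, Nqo1 and Gsto1, beside 9.13%). Hmox1 passed the minimum only through the group given DHT. Over genes with a mean of at least 10 in both groups, 7 of 35 did not overlap (20.0%, beside 18.9% of 8456) and 6 had an unadjusted p under 0.05 (17.1%, beside 13.7%). These totals lie near the background. On the lower side the called genes (2 of 36) and those under an unadjusted 0.05 (5 of 36) were above it, a difference that was not tested. The median log2 difference was -0.024, with 19 of 36 below 0 (beside 49.2% of all genes).

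In ORX against Control, limma called 0 of 36, beside 0.0579% of all genes. At an unadjusted p under 0.05 there were 5 of 36 (13.9%, beside 7.21% of all genes), with Gstm2 and Gpx3 on the higher side (beside 3.16%) and Sod2, Gpx1 and Txnrd3 on the lower (beside 4.04%). edgeR and DESeq2 on the recovered reads also called 0 antioxidant genes, beside 6 and 28 called among all genes. The median log2 difference was -0.095 with 23 of 36 below 0 (beside 51.1% of all genes), and without Control 1 it was 0.028 with 18 of 36 below 0. Groups did not overlap for 5 genes (13.9%, beside 14.3%), Gstm2 higher (beside 6.28%) and Sod2, Gpx1, Prdx2 and Txnrd3 lower (beside 8.06%). Txnrd3 passed the minimum only through Control and Gstt2 only through ORX. With both left out, 4 of 34 genes had an unadjusted p under 0.05 and 4 did not overlap (11.8% each), beside 6.8% and 13.8% of the 8286 genes with a mean of at least 10 in both groups.

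In ORX+DHT against Control, limma called 0 of 37, beside 0.0349% of all genes. Unadjusted p was under 0.05 for 5 (13.5%, beside 6.48% of all genes), with Gpx3 on the higher side (beside 3.18%) and Gstk1, Gstm2, Gstm1 and Txnip on the lower (beside 3.3%). edgeR and DESeq2 called 0 antioxidant genes, beside 4 and 13 called among all genes. The groups did not overlap for 6 genes (16.2%, beside 14%), all on the lower side (beside 7.12%): Gstm2, Gstm1, Gstk1, Sod2, Prdx5 and Txnip. None of these is among the genes that passed the minimum through 1 group only, here Txnrd3 and Gstt2. The median was -0.213 with 26 of 37 below 0 (beside 50.7% of all genes), and without Control 1 it was -0.006 with 18 of 36 below 0 and again 0 called. Comparisons that share a group are not independent, since the ORX libraries serve 2 of them and the Control and ORX+DHT libraries likewise.

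**Figure D2:**
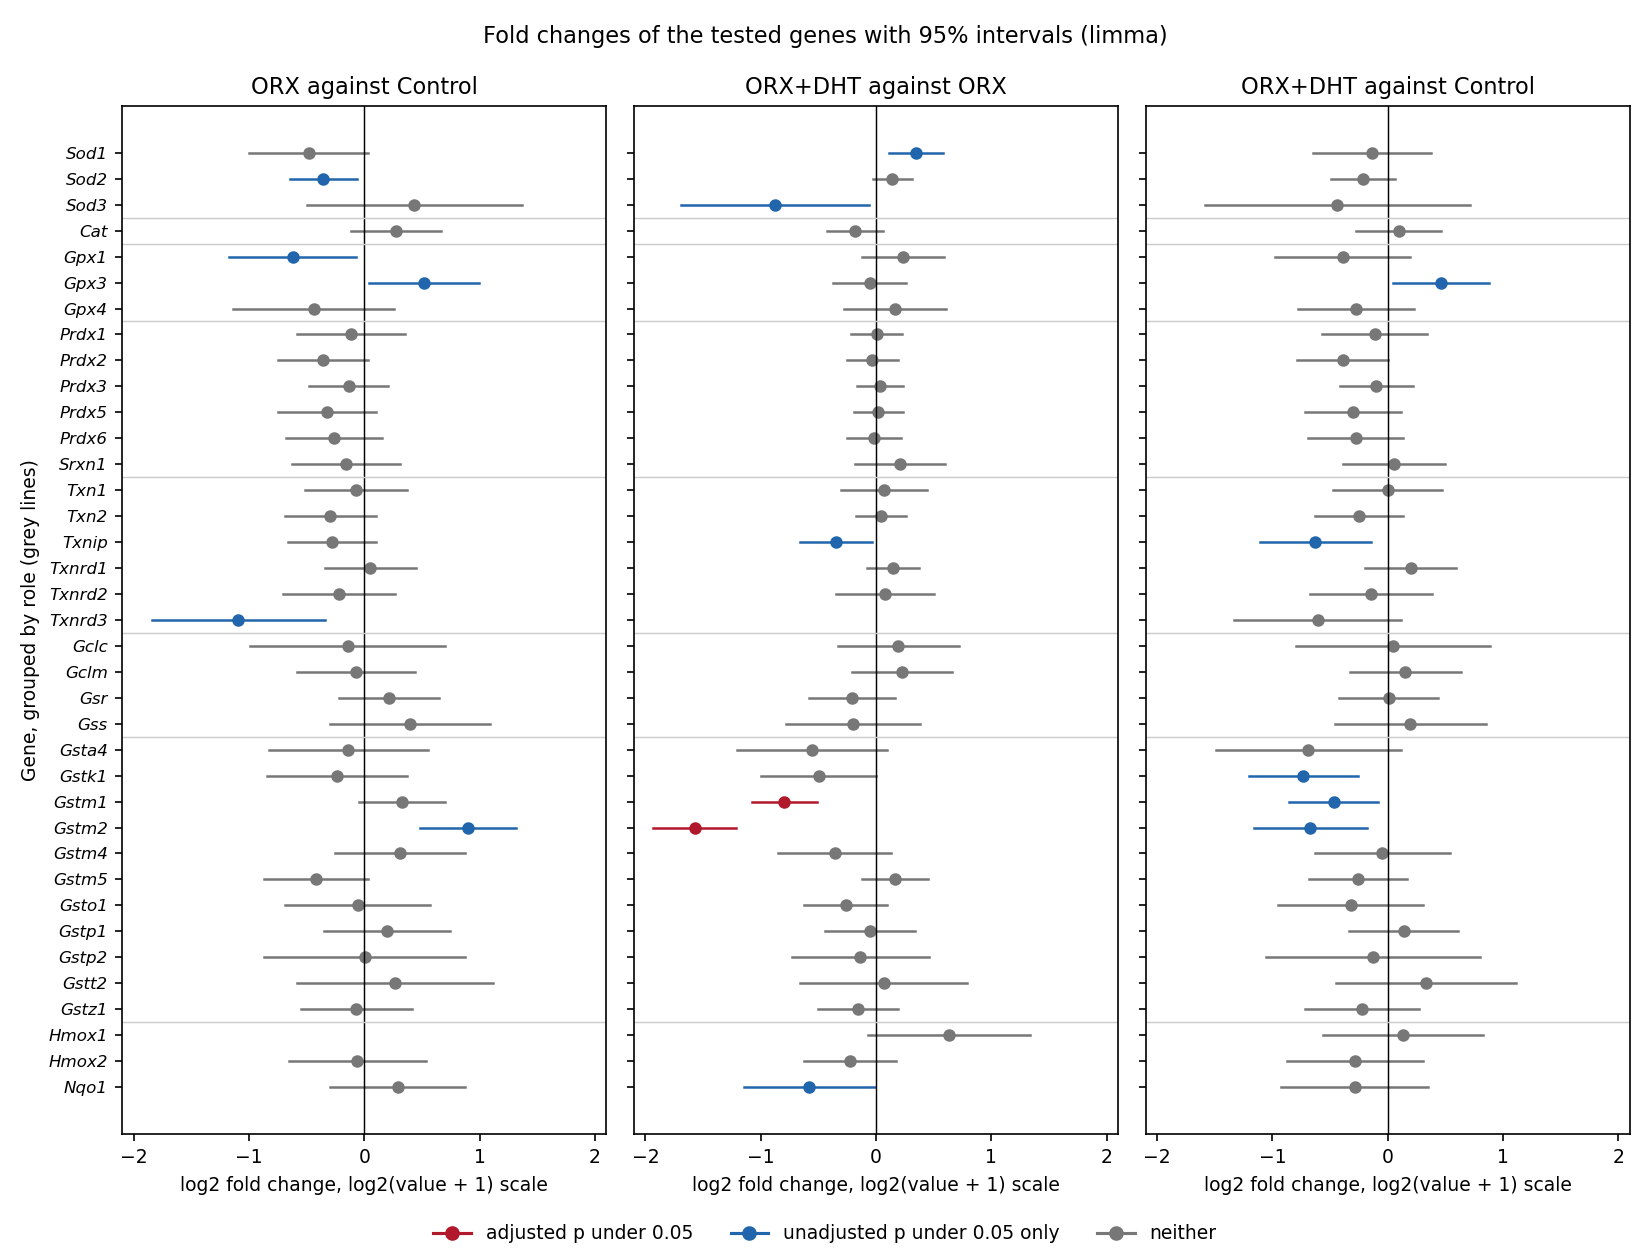
Log2 differences (x axis, points) with 95% intervals (lines) of the antioxidant genes tested in each comparison (panels), red where the limma adjusted p was under 0.05, blue where only the unadjusted p was, grey otherwise. Gstm2 at -1.57 and Gstm1 at -0.80 in ORX+DHT against ORX are the red points, and the points of Txnrd3, Gstt2 and Hmox1 include comparisons in which 1 group mean was below 10.

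Among the superoxide dismutases, Sod1, the copper-zinc enzyme of the cytosol, stood at 248, 142 and 122 in Control, at 113, 111 and 126 in ORX and at 141, 147 and 156 in ORX+DHT. Every ORX+DHT library was above every ORX library, and Control 1 was far above all others. The log2 difference between ORX+DHT and ORX was 0.34 (95% interval 0.11 to 0.58, limma unadjusted p = 0.00664, adjusted p = 0.112). Between ORX+DHT and Control it was -0.14, and without Control 1 it was 0.17. Windows shared with the pseudogene Gm8566 and other genes make up 23.14% of the Sod1 transcript.

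Sod2, the manganese enzyme of mitochondria, stood at 750, 649 and 712 in Control, at 529, 551 and 568 in ORX and at 614, 597 and 607 in ORX+DHT. The 3 groups did not overlap, with ORX lowest, ORX+DHT next and Control highest. None of the differences passed the test: -0.36 on the log2 scale for ORX against Control (limma unadjusted p = 0.0206, adjusted p = 0.669, and -0.31 without Control 1), 0.14 for ORX+DHT against ORX (limma adjusted p = 0.445) and -0.21 for ORX+DHT against Control (limma adjusted p = 0.742, and -0.17 without Control 1). Sod3, the extracellular enzyme, was low and spread widely, at 26.2, 7.74 and 8.94 in Control, at 20.6, 11.9 and 19.9 in ORX and at 6.08, 18.4 and 5.93 in ORX+DHT. Its difference of -0.88 between ORX+DHT and ORX had a limma adjusted p of 0.299, and without ORX+DHT 2, the high library of that group, it was -1.37 with a limma adjusted p of 0.0484. Catalase (Cat), which splits hydrogen peroxide in peroxisomes, stood at 131, 123 and 174 in Control, at 178, 148 and 189 in ORX and at 155, 138 and 159 in ORX+DHT, with all groups overlapping. Its log2 difference was 0.27 for ORX against Control (0.22 without Control 1), -0.18 for ORX+DHT against ORX and 0.09 for ORX+DHT against Control (0.04 without Control 1).

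Of the 5 glutathione peroxidases, 3 were tested and none was called. Gpx1, the cytosolic selenoenzyme, stood at 120, 71.9 and 56.6 in Control, at 47.1, 50.3 and 55.4 in ORX and at 47.6, 72.5 and 62.2 in ORX+DHT. The ORX libraries were below the Control libraries, the highest at 55.4 and the lowest Control at 56.6, with a log2 difference of -0.62 (limma unadjusted p = 0.0305, adjusted p = 0.675). Without Control 1, by far the highest library for Gpx1, that difference was -0.32. Gpx3, the secreted form, stood at 114, 73.0 and 89.4 in Control, at 110, 118 and 170 in ORX and at 129, 110 and 138 in ORX+DHT. Its log2 difference from Control was 0.52 in ORX and 0.46 in ORX+DHT, each with overlapping groups (limma adjusted p = 0.675 and 0.736), and without Control 1 it was 0.68 and 0.63 (limma adjusted p = 0.138 and 0.0618). Gpx4, which reduces lipid peroxides, stood at 281, 144 and 152 in Control, at 183, 167 and 80.2 in ORX and at 146, 157 and 151 in ORX+DHT. Control 1 was its highest library and ORX 3 its lowest, and 68.9% of its 50-base windows occur in other genes, mainly the pseudogene Gpx4-ps2.

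The peroxiredoxins, which use thioredoxin or glutathione to reduce peroxides, and sulfiredoxin (Srxn1), which restores them when overoxidised, had no call in any comparison. Of the 6 tested, all had a log2 difference below 0 in ORX against Control, between -0.36 and -0.12. Without Control 1 these lay between -0.27 and 0.15, 5 of 6 below 0, with Prdx1 at 0.15 and Prdx3 at -0.015. Between ORX+DHT and ORX they lay between -0.032 and 0.212, with a median of 0.014. Prdx3, the mitochondrial form and the highest of the 6 per kb, stood at 446, 345 and 348 in Control, at 304, 350 and 378 in ORX and at 352, 352 and 351 in ORX+DHT. The ORX+DHT libraries were nearly equal and lay within the ORX range, and the log2 difference between ORX+DHT and ORX was 0.04 (95% interval -0.16 to 0.24, limma adjusted p = 0.910).

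In the thioredoxin system, Txnip, an arrestin-family protein that binds and inhibits thioredoxin, was the most highly expressed gene per kb. It stood at 1309, 855 and 967 in Control, at 874, 929 and 748 in ORX and at 479, 843 and 726 in ORX+DHT. ORX+DHT was below Control in every library and overlapped with ORX. The log2 difference was -0.35 against ORX (limma unadjusted p = 0.0294, adjusted p = 0.268) and -0.63 against Control (limma unadjusted p = 0.015, adjusted p = 0.736), or -0.45 against Control without Control 1. Exons of Gm15441 on the opposite strand cover 19.4% of Txnip, and the strand setting of the counting is not given in the sources used here. Txnrd3, a thioredoxin reductase known mainly from testis, stood at 11.2, 17.7 and 17.9 in Control, at 6.87, 5.12 and 8.27 in ORX and at 8.11, 8.70 and 12.8 in ORX+DHT. The ORX libraries were below the Control libraries, on 6 to 10 reads in ORX and 9 to 18 in Control. Since Txnrd3 reached the minimum for testing only through Control, no test of its difference is given. Thioredoxins Txn1 and Txn2 and the reductases Txnrd1 and Txnrd2 had log2 differences between -0.30 and 0.20 in the 3 comparisons, all with overlapping groups. Without Control 1 those from Control lay between -0.18 and 0.06 in ORX and between -0.11 and 0.13 in ORX+DHT.

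**Figure D3:**
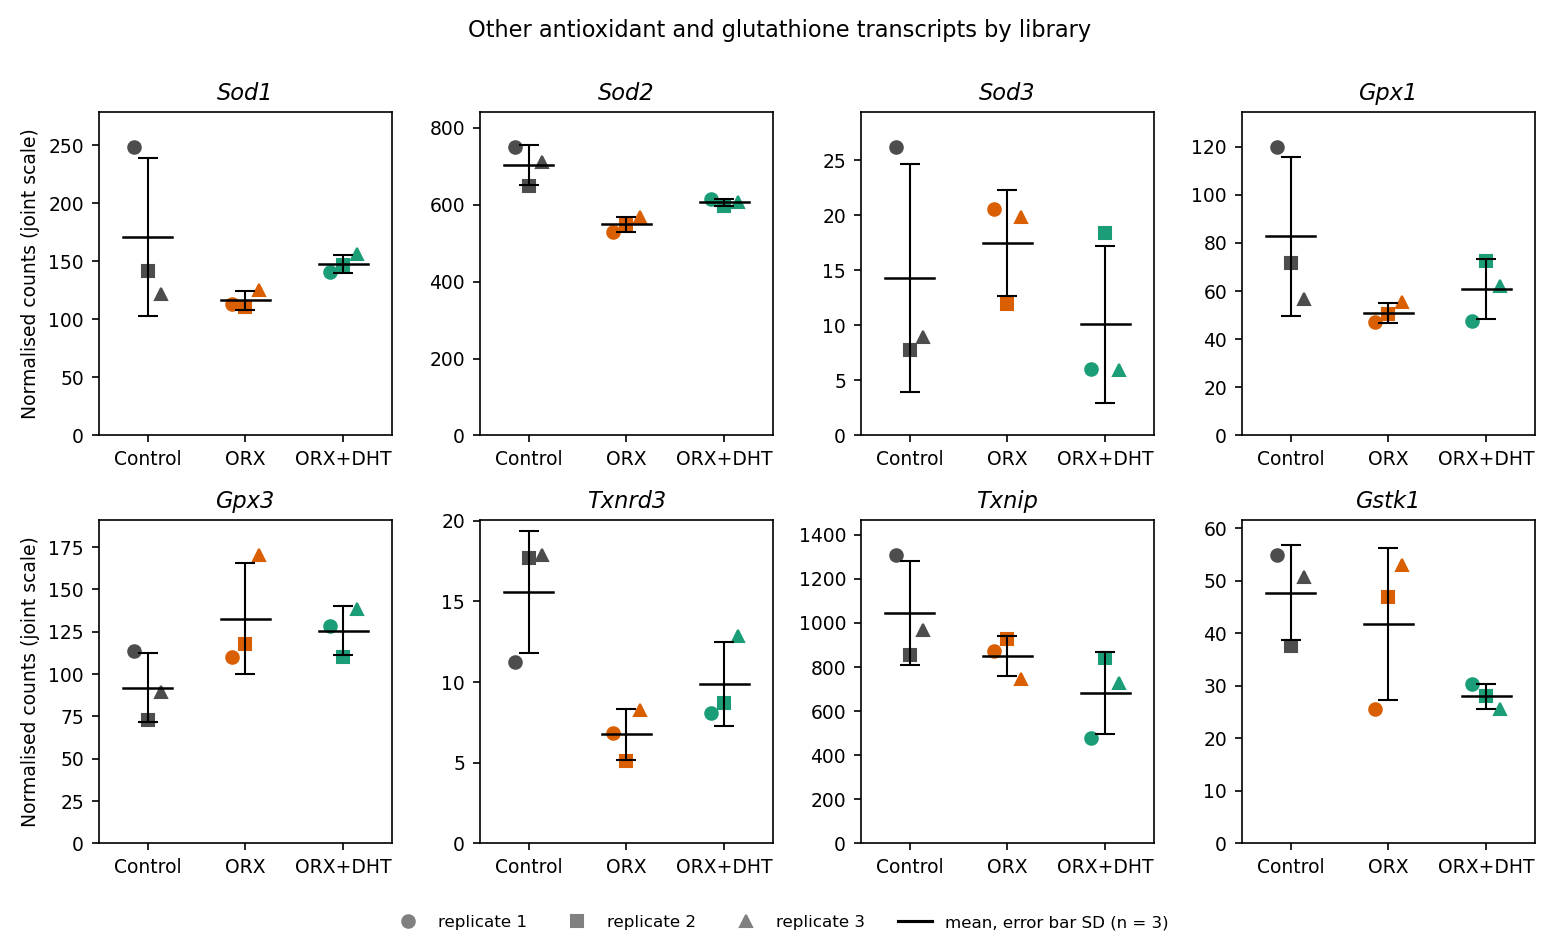
Normalised counts on the joint scale (y axes, from 0) of Sod1, Sod2, Sod3, Gpx1, Gpx3, Txnrd3, Txnip and Gstk1 in each library (points) by group (x axis), with the group mean and SD. Control 1 is the highest point for Sod1, Gpx1 and Txnip, and the 3 groups of Sod2 do not overlap.

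The enzymes of glutathione synthesis and recycling showed no call in any comparison. They are Gclc and Gclm, the subunits of the rate-limiting glutamate-cysteine ligase, Gss, glutathione synthetase, and Gsr, glutathione reductase. Their log2 differences lay between -0.21 and 0.223 for ORX+DHT against ORX and, for ORX against Control, between -0.144 and 0.394 (-0.197 to 0.377 without Control 1). Gsr, the highest of the 4 per kb, stood at 37.5, 33.2 and 32.8 in Control, at 35.3, 41.8 and 43.8 in ORX and at 35.5, 31.9 and 36.6 in ORX+DHT, with ORX overlapping both other groups.

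Nqo1, a quinone reductase and textbook Nrf2 target, stood at 13.7, 16.6 and 19.9 in Control, at 16.7, 24.7 and 20.7 in ORX and at 16.2, 10.6 and 13.8 in ORX+DHT. The ORX+DHT libraries were all below the ORX libraries, the closest being 16.2 and 16.7, and the log2 difference was -0.58 (limma unadjusted p = 0.0459, adjusted p = 0.338). Hmox1, inducible haem oxygenase, stood at 13.7, 9.95 and 8.94 in Control, at 9.82, 6.82 and 5.79 in ORX and at 13.2, 10.6 and 11.9 in ORX+DHT. Its ORX+DHT libraries were all above the ORX libraries, on 11 to 13 and 7 to 10 reads, and no test is given because it reached the minimum only through ORX+DHT. Hmox2, the constitutive form, stood at 58.7, 31.0 and 29.8 in Control, at 39.3, 30.7 and 39.7 in ORX and at 29.4, 30.0 and 33.6 in ORX+DHT, and its groups overlapped. Exons of Cdip1 on the opposite strand cover 40.2% of Hmox2.

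Over all 9 libraries the levels per kb of the principal transcript placed Txnip first, at 307 normalised counts per kb, followed by Prdx3 at 242 and Sod1 at 226. Prdx5 (187), Gpx4 (169), Txn2 (131), Prdx2 (112) and Sod2 (106) came next. Gstm1 (98.8) was the highest transferase among the genes chosen by the rule, which leaves out Mgst1 and Mgst3. Cat was at 59.3, Hmox2 at 20.7, Gsr at 13.6 and Sod3 at 3.74. With lengths from the union of exons, Txnip (275) and Prdx3 (242) stayed highest, while Sod1 was at 36.5, below Prdx5 (110), Gpx4 (94.1), Gstm1 (86.4), Prdx1 (71.8) and Sod2 (61.9) among others. The place of Sod1 thus rests on the choice of length. At the low end, 8 genes were below the test's minimum in every comparison (Gpx7, Gpx8, Gstm3, Gstm7, Gsto2, Gstt1, Gstt3 and Prdx4), with values of 0 to 13.3, and nothing is said of their differences. Hmox1 and Txnrd3 were tested in some comparisons only.

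**Figure D4:**
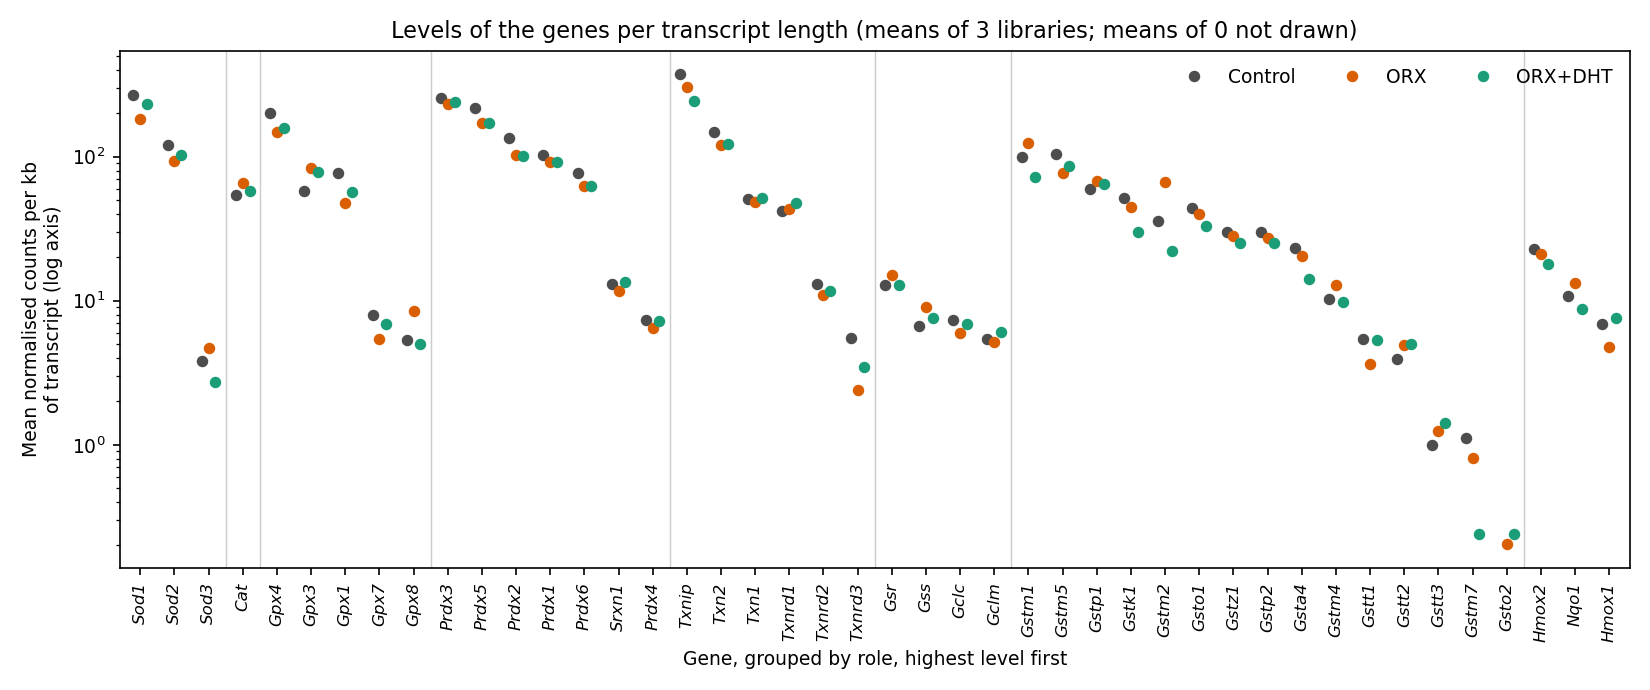
Mean normalised counts per kb of the principal transcript (y axis, log scale) of 44 antioxidant genes (x axis, by role) in each group (points, means of 3 libraries). Txnip, Prdx3 and Sod1 lie highest on this length (Sod1 is at 36.5 with the union of exons), and the 3 group means of Gstm2 are separated while those of Prdx3 are close together.

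Other genes of the pathway were read from 6 lists of 102 genes, 99 of them in the tables. When DHT was given to orchiectomised mice, 3 of the 73 tested rose and 2 fell (beside 2.38% and 1.7% of all genes). Against Control, limma called 0 of 74 in ORX and 0 of 74 in ORX+DHT, with 8 and 5 genes under an unadjusted 0.05 (beside 7.21% and 6.48% of all genes). The 8 include Aldh1l1, which passed the minimum only through ORX (mean 18.5, against 8.14 in Control). These counts keep any gene with a group mean below the minimum.

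The 3 that rose in ORX+DHT against ORX all belong to the list of glutaredoxins and other thiol enzymes, in which 13 of 17 genes tested were above 0 with a median of 0.181. Over all genes 49.2% lay below 0 and the median was 0.006. Mgst3, a membrane-bound transferase and peroxidase that is unrelated in sequence to the mu class, stood at 118, 125 and 128 in ORX and at 258, 235 and 261 in ORX+DHT. The groups were far apart, and Mgst3 rose by 1.02 on the log2 scale (SE 0.10, limma adjusted p = 4.16e-06). Control lay at 308, 201 and 173. Mgst1, the related enzyme of the endoplasmic reticulum and outer mitochondrial membrane, rose from 13.7, 13.6 and 22.3 to 33.4, 47.4 and 45.5 (log2 1.32, SE 0.24, limma adjusted p = 0.00259), against 36.2, 32.1 and 26.8 in Control. Both microsomal genes thus had the opposite sign to Gstm1 and Gstm2, and both calls held in every alternative in which the gene was tested. Msrb1, a methionine sulfoxide reductase, rose from 142 ± 12.4 to 230 ± 11.7 (SD, n = 3 each, log2 0.70, limma adjusted p = 0.00046), a call lost with all 9 libraries in 1 fit (adjusted p = 0.263). ORX differed from Control by -0.92 in Mgst1, -0.83 in Mgst3 and -0.84 in Msrb1, none of which passed the test (limma adjusted p = 0.494, 0.326 and 0.553), and without Control 1 the differences were -0.82, -0.59 and -0.47 (limma adjusted p = 0.289, 0.053 and 0.168).

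Chac1, which degrades glutathione, stood at 98.2, 63.1 and 160 in ORX and at 12.2, 35.8 and 77.1 in ORX+DHT (20.0, 69.7 and 24.8 in Control), and fell by 1.59 on the log2 scale (limma adjusted p = 0.0453). The groups overlapped, and the call was lost under 10 alternatives, among them DESeq2 (adjusted p = 0.68) and leaving out either ORX 1, ORX 3, ORX+DHT 1 or ORX+DHT 2 (limma adjusted p = 0.103 to 0.204). ORX differed from Control in Chac1 by 1.58 on the log2 scale (limma unadjusted p = 0.00329, adjusted p = 0.405). Without Control 1 this was 1.24 (limma adjusted p = 0.197), and without Control 2 it was 2.12 and passed the test (limma adjusted p = 0.0457). Selenos, a selenoprotein of the endoplasmic reticulum, fell from 27.5, 31.6 and 32.3 to 10.1, 19.3 and 14.8 (log2 -1.04, limma adjusted p = 0.0242), a call lost under 5 alternatives, among them leaving out ORX 2, ORX 3 or ORX+DHT 1.

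None of the 9 tested genes of Nrf2 control was called. In ORX+DHT against ORX 7 of the 9 were above 0 with a median of 0.136 (over all genes 49.2% lay below 0). Beside 7.91% of all genes on the higher side, 2 of the list had an unadjusted p under 0.05, both higher. They were Bach1, a repressor of antioxidant response elements (log2 0.47, limma unadjusted p = 0.00726, adjusted p = 0.118), and Nfe2l1, a relative of Nrf2 (log2 0.24, limma unadjusted p = 0.00526, adjusted p = 0.0951). Nfe2l2, which encodes Nrf2, had means of 74.5 ± 6.12 in ORX+DHT, 61.2 ± 9.08 in ORX and 60.5 ± 10.2 in Control (SD, n = 3 each), a log2 difference of 0.29 between ORX+DHT and ORX (limma adjusted p = 0.409). Keap1, the adaptor that targets Nrf2 for degradation, had means of 122 ± 0.145, 124 ± 15.3 and 123 ± 8.74 in the same order, with a difference of -0.02. Of the 12 tested genes of NADPH supply, 10 were below 0 in ORX+DHT against ORX (beside 49.2% of all genes) with a median of -0.161, and none was called. Idh2, Me1, Mthfd1 and Pgls were those with an unadjusted p under 0.05, all lower (beside 6.34% of all genes). Whether these lists differ from all genes was not tested. The lists of cystine and glutathione turnover (9 tested), of selenoproteins (16 tested) and of oxidant sources and metal handling (10 tested) had medians of 0.055, -0.07 and -0.062 in that comparison, against 0.006 over all genes.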

How the data were processed

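RNA was sequenced from 9 tibialis anterior libraries. The values the authors deposited, in 2 tables, are a signal: reads per gene divided by 1 factor a library, for protein-coding genes only, 1 table with Control and ORX and 1 with ORX and ORX+DHT. Per the submitters' processing notes, Trim Galore 0.6.7, HISAT2 2.2.1, featureCounts 2.0.1, DESeq2 1.36.0 and build GRCm38 were used, with no role or order given. Read length and the strand setting are not given in the sources used here. Columns headed Sham were taken as Control, the group without orchiectomy, by replicate number, and 0 columns were unmapped. In every column 100% of values were whole multiples of 1 step (tolerance 0.01 reads), which gave back the reads. For Control 3 the step was 0.992, near 1, and its values were whole multiples of that step and not of 1.

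Each comparison was fitted over its whole table with limma 3.58.1 in R 4.3.3 (lmFit, eBayes with trend) after log2(value + 1), keeping genes whose mean was 10 or more, with Benjamini-Hochberg adjustment. A call is an adjusted p under 0.05, and fold changes on this scale understate those of low genes. ORX+DHT and Control were joined over 14300 shared genes and all 9 libraries rescaled by median-of-ratios factors. Levels are printed on that scale. edgeR 4.0.16 (quasi-likelihood) and DESeq2 1.42.0 were run on the recovered reads as alternatives. Also tried were leaving out each library, the replicate block, 1 fit of all 9 libraries, robust eBayes, scaling by quantiles or TMM, a filter at 50 or none, and adding 0.1 or 10 before taking logs. Counting intervals on such reads would cover counting error only.

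Members follow a rule on gene names. Given with every library's value are members with an adjusted or unadjusted p under 0.05 in any comparison, those with groups apart and a log2 difference of at least 0.5, and the highest per kb of each role (17 genes). Gstm4 and Gstm5 were added as cluster neighbours after their values were seen, as was Gsto1. The members, gene lists and marker lists were chosen with earlier results of these data known. Coordinates and transcript lengths are from GENCODE M21, and windows before start sites from RefSeq. On simulated data with 200 changed genes, 74%, 84.5% and 75% were recovered in the comparisons of ORX with Control, of ORX+DHT with ORX and of ORX+DHT with Control, where 8578, 8749 and 8458 genes were tested, and 1.33%, 5.06% and 6.25% of the calls were false.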

Additional observations from a re-analysis of the deposited data

How the results depend on the processing

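Depth limits the low genes, at 21 to 26 reads for Gstm2 in ORX+DHT, and 3 libraries a group limit every comparison. Of 1157 alternative values of 70 gene results, 1101 kept direction and side of the threshold, 16 lost and 5 gained the call, and 35 changed sign. The count of all genes called moved by over 1.5 times as follows, and the cause was not tested. In ORX against Control (5) it was 16 without a filter, 23 with all 9 libraries in 1 fit, 28 with DESeq2 and 1 to 51 leaving out 1 library (51 without Control 1, 21 without Control 3, 1, 1 and 2 without ORX 1, 2 and 3). In ORX+DHT against ORX (358) it was 124 with all 9 libraries, 221 with DESeq2 and 223 to 350 leaving out 1 library (223 without ORX+DHT 1). In ORX+DHT against Control (3) it was 6 with quantile normalisation, 11 with all 9 libraries, 13 with DESeq2 and 0 to 66 leaving out 1 library (66 without Control 1, 1 without Control 3 or ORX+DHT 1, 0 without ORX+DHT 3). Antioxidant genes called in ORX against Control were 0 to 1 leaving out 1 library. The sign changes were all in genes without a call in the comparison named. Leaving out 1 library in turn, the log2 difference of ORX from Control ran over Gstk1 -0.43 to 0.078, Hmox2 -0.23 to 0.25, Keap1 -0.053 to 0.12, Nfe2l2 -0.12 to 0.095 and Selenos -0.0054 to 0.70. That of ORX+DHT from ORX ran over Gpx3 -0.18 to 0.14, Gpx4 -0.21 to 0.38, Keap1 -0.13 to 0.042 and Prdx3 -0.049 to 0.11. For ORX+DHT and Control the ranges were Cat -0.0042 to 0.25, Chac1 -0.62 to 0.67, Gpx4 -0.45 to 0.032, Gsr -0.032 to 0.067, Hmox2 -0.45 to 0.026, Keap1 -0.071 to 0.023, Msrb1 -0.39 to 0.23, Prdx3 -0.16 to 0.021 and Sod1 -0.34 to 0.17. Quantile normalisation turned Prdx3 to -0.040 in the second of these comparisons, and Keap1 to 0.030 and Chac1 to 0.0091 in the last, where Chac1 was also 0.029 with a pseudocount of 10 and 0.13 with edgeR or DESeq2. Whether the replicate numbers pair the libraries was not settled. Same-numbered libraries correlated at 0.063, 0.061 and 0.151 between ORX and ORX+DHT, and at -0.165 to 0.06 elsewhere. Between ORX and ORX+DHT each library correlated best with its own number, a hint from the data. With the replicate block 571 genes were called in ORX+DHT against ORX, with 3 antioxidant genes, Txnip being the third (adjusted p = 0.0244), and 5 and 3 genes in the other comparisons.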
